A study of Mus musculus with 2 samples.

Results

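The 38 genes described here make up the core of the transforming growth factor beta (TGF-beta) and bone morphogenetic protein (BMP) pathway. They comprise ligands and the proteins that release or trap them, cell-surface receptors, SMAD proteins, repressors and ubiquitin ligases of the feedback loop, and early target genes. They were taken by symbol from a deposited count table of 21983 entries, and all 38 were in it. The 2 samples of the series were 14837 cells, a C57BL/6 mouse line of pancreatic ductal adenocarcinoma, kept for 48 h in conditioned medium. Such medium is one that other cells have released their products into. Per the labels, the conditioned medium came from cancer-associated fibroblasts (CAFs) in 1 library and from 14837 cells themselves in the other, and the cells were otherwise grown alike in DMEM with serum. Of 2 value columns, 1 carried a name that fits the CAF-medium library, and the name of the other fitted neither library, so it was not used. The 2 media were therefore not compared, and all values are levels in the single CAF-medium library. Nothing in the labels says whether 14837 is 1 clone.

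Ligands of this family bind a type II receptor, which switches on a type I receptor, which in turn phosphorylates SMAD proteins. TGF-beta and activin signals run through the products of Smad2 and Smad3, and BMP signals through those of Smad1 and Smad5. Both pairs join the product of Smad4 and enter the nucleus, where they switch on targets that include their own inhibitors. In the pancreas the pathway is known for restraining epithelial growth, for driving epithelial cells towards a mesenchymal state and for the frequent loss of SMAD4 in the human tumour, and fibroblasts are a known source of its ligands.

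Sequences of 4 promoters are shown because the results below return to these genes: Smad3 and Tgfb1 were among the 5 highest of the 38 genes per length of exon, and the activin subunit genes Inhba and Inhbb were one well covered and the other listed at 0. Skil, Pmepa1 and Tgif1, also among the 5 highest, are not shown. Each run holds the 250 bases before the start of the RefSeq transcript (GRCm38.p6), 5′ to 3′ on the strand of the gene, with CpG dinucleotides in capitals.
Smad3, chr9:63757995-63758244, minus strand: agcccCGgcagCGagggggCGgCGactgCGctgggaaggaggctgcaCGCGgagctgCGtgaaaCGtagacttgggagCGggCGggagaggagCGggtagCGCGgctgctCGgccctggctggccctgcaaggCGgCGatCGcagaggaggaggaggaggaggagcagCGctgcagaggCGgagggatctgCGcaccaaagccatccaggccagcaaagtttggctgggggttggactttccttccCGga
Tgfb1, chr7:25686752-25687001, plus strand: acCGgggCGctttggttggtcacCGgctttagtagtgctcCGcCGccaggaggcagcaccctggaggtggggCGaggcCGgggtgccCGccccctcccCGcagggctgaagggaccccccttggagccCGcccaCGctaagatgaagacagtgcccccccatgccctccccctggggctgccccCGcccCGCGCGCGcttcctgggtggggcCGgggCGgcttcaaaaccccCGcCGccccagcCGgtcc
Inhba, chr13:16011601-16011850, plus strand: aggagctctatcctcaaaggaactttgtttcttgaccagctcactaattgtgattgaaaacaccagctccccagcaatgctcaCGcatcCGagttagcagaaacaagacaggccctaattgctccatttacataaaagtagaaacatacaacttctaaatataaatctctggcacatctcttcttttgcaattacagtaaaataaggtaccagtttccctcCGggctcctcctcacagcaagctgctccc
Inhbb, chr1:119422249-119422498, minus strand: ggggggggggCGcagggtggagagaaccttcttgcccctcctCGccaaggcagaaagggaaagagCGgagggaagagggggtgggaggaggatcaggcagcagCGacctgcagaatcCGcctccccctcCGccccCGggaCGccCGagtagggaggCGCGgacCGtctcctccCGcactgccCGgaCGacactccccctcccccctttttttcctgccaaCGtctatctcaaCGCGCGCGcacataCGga

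The library held 21269197 counts, and the 38 genes together took 0.282% of them. Levels are given as counts per 1000000 of that total (CPM) with exact Poisson 95% intervals, which cover counting error only, since there was no second culture. For a count of 0 the limit given is one-sided, at 3 counts or 0.141 CPM, while the upper end of the exact two-sided interval lies at 0.173 CPM. Because Atp5a1 and Uqcrc1, genes of the respiratory machinery that cells generally use, were themselves listed at 0, a gene at 0 is described only as listed at 0 and no fold is given against it. Ductal identity was checked with 7 epithelial markers. Krt7, Krt8, Krt18, Krt19, Cdh1 and Muc1 stood between 60.3 and 1819 CPM, with Krt18 and Krt8 the highest, while Epcam had 2 counts. Of 10 fibroblast markers, 5 were listed at 0, against 36.6% of all entries. Col1a2, Col3a1 and Dcn were among them, and the highest marker was Pdgfra at 34.2 CPM. The summed level of the 10 was 37.0 CPM against 4015 CPM for the epithelial markers. The part of any fibroblast RNA in the values below was not tested. Immune, endothelial and acinar markers summed to 5.78, 0.423 and 0.470 CPM.

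Most of the 38 genes were detected. Of the 38 genes, 33 had at least 10 counts, against 52.6% of all entries. Listed at 0 were 5 genes (Inhbb, Bmp7, Tgfbr3, Nog and Tgfbi), against 36.6% of all entries. Taking the median gene among entries with at least 10 counts, at 37.9 CPM, as a yardstick, 22 of the 38 genes lay above it, against 26.3% of all entries. Many entries had few or no counts, which lowers the share over all entries. The median of the 33 detected genes was 72.0 CPM. The library is a bulk one, so fewer cells with a transcript and less of it per cell cannot be told apart. Nothing particular to the pathway follows from these shares. The 38 genes were picked for their role and with earlier results of these data known.

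**Figure D1:**
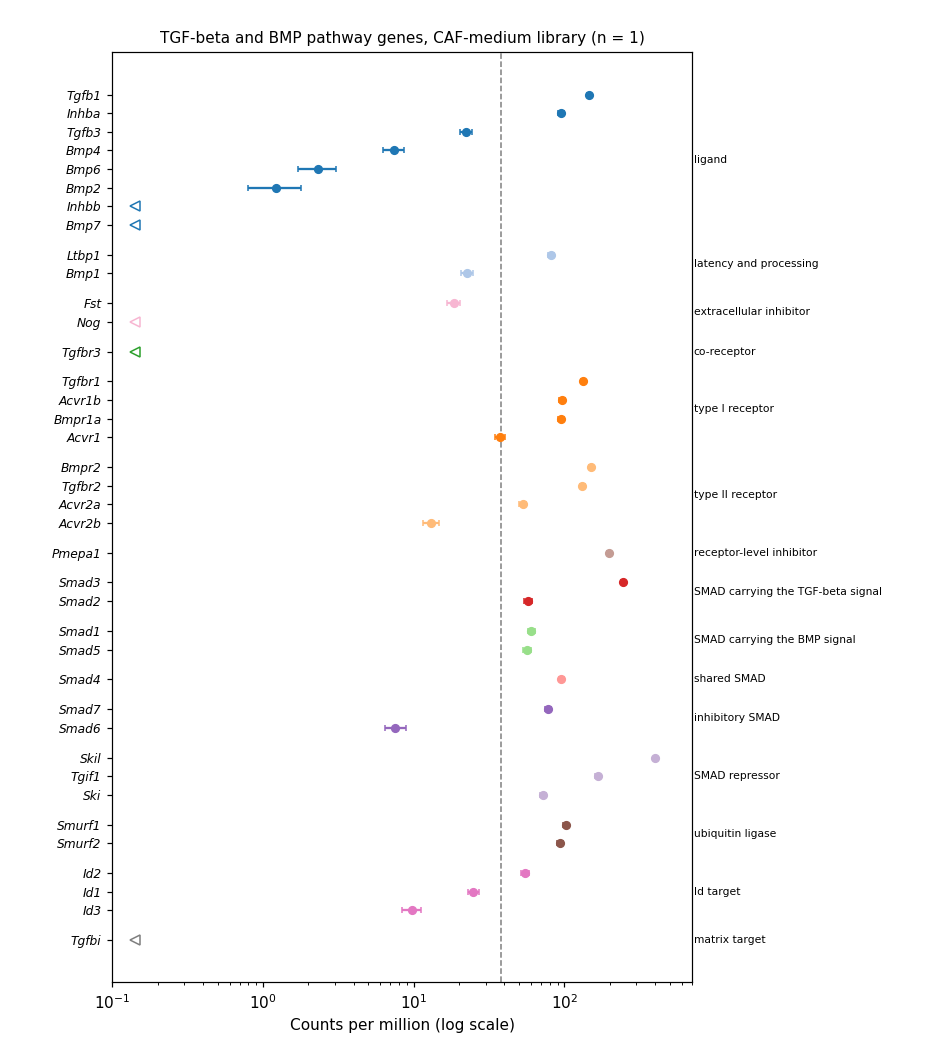
Level in CPM on a log axis for each of the 38 genes in the single CAF-medium library, ordered by role. Bars are exact Poisson 95% intervals, open triangles mark genes listed at 0 at the 3-count limit of 0.141 CPM, and the dashed line is the median gene at 37.9 CPM. Receptors and SMAD genes lie mostly to the right of the line and the BMP ligands to its left.

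Among the ligands, Tgfb1 and Inhba were the highest per kilobase and the BMP genes lay low. Tgfb1, which encodes the most widespread TGF-beta, lies on the plus strand of chromosome 7 (mm10) from 25687002 to 25705077 and had 3086 counts, or 145 CPM (140.0 to 150.3). Inhba, whose product forms activin A and which lies on the plus strand of chromosome 13 from 16011851 to 16031621, had 2007 counts, or 94.4 CPM (90.3 to 98.6). These were the 2 ligand genes above the median gene. Tgfb3, a second TGF-beta, followed at 22.4 CPM (20.4 to 24.5), although exons of other genes overlap 12.4% of its exonic bases and the strand setting of the counting is not given. Bmp4, a BMP that patterns many embryonic tissues, stood at 7.38 CPM (6.27 to 8.63). Bmp6, known for its control of iron balance, had 49 counts, and Bmp2, known for bone induction, had 26. The remaining activin subunit gene Inhbb and Bmp7 were listed at 0. Of the ligand levels summed per kilobase, Tgfb1 held 52.9% and Inhba 27.2%, and with the longest coding transcript 72.0% and 15.9%.

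Longer transcripts collect more counts, so ratios between genes are given as CPM per kilobase of annotated exon. On that scale Tgfb1 stood at 28.8 (27.8 to 29.8) and Tgfb3 at 6.62 (6.03 to 7.24), a ratio of 4.35 (3.95 to 4.80). With the longest protein-coding transcript as the length, the ratio was 10.1, so its size depends on the gene model. Bmp4 exceeded Bmp2 by 9.55 times (6.28 to 15.1).

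A further list of 22 ligand genes of the family had 13 listed at 0, against 36.6% of all entries, 4 with 1 to 9 counts and none above the median gene, against 26.3%. Its highest member per kilobase was Lefty1, which encodes an inhibitor of Nodal signals, at 7.01 CPM per kilobase. Of the windows of the Lefty1 transcript, 14.3% are shared with other genes, here Lefty2, so that value is uncertain. Gdf11 and Gdf15, a relative of myostatin and a stress-induced cytokine, followed at 1.37 and 1.04 CPM per kilobase. The genes at 0 were Gdf1, Gdf3, Gdf6, Gdf10, Bmp3, Bmp5, Bmp10, Mstn, Nodal, Lefty2, Inha, Inhbc and Inhbe.

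Genes that store or process ligands were present, and the 2 extracellular traps were low or listed at 0. Ltbp1, which ties latent TGF-beta to the matrix, stood at 81.0 CPM (77.2 to 84.9), or 7.57 CPM per kilobase. Bmp1 is no BMP but a protease that trims procollagen and frees ligands from inhibitors, and it stood at 22.6 CPM (20.6 to 24.7). Fst encodes follistatin, which binds and blocks activins, and stood at 18.4 CPM (16.7 to 20.3). Per kilobase, Inhba exceeded Fst by 3.68 times (3.30 to 4.11), or by 2.27 times with the longest coding transcript. Noggin, Nog, a BMP trap, was listed at 0.

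In a list of 26 other extracellular inhibitors, proteases and latency genes, 12 reached 10 counts and 12 were listed at 0. The shares over all entries were 52.6% and 36.6%, so these counts set the list little apart from the table. The 3 highest per kilobase were as follows. Ltbp3, a further latent TGF-beta binding protein, stood at 40.2 CPM per kilobase, Furin, the protease that cuts the ligand precursors, at 32.9, and the integrin subunit Itgav, which takes part in freeing latent TGF-beta, at 22.9. Among those listed at 0 were Fstl1, Chrdl1, Chrdl2, Bambi, Sost, Sostdc1, Cer1, Tll1, Lrrc32, Itgb8 and Dcn.

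Receptors of both types were detected for both branches, from 13.1 CPM upwards. Of the type I receptors, Tgfbr1, the TGF-beta receptor, had 133 CPM (128 to 138). Tgfbr1 spans 47353222 to 47414931 on the plus strand of chromosome 4. Acvr1b, an activin receptor, stood at 96.3 CPM (92.2 to 100.6), and Bmpr1a, a BMP receptor, at 94.9 CPM (90.8 to 99.1). Acvr1, which also serves BMPs, stood at 37.3 CPM (34.8 to 40.0). Per kilobase, Acvr1b stood at 21.8, Tgfbr1 at 20.3, Bmpr1a at 14.9 and Acvr1 at 7.73, while with the longest coding transcript Tgfbr1, at 23.0, lay above Acvr1b, at 21.8. Acvr1 was thus 0.355 times Acvr1b (0.326 to 0.385) and 0.517 times Bmpr1a (0.476 to 0.562). Summed per kilobase, the TGF-beta and activin receptors Tgfbr1 and Acvr1b came to 42.1, and the BMP receptors Acvr1 and Bmpr1a to 22.7 (44.8 and 27.3 with the longest coding transcript).

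For TGF-beta and activins, the type II receptor binds the ligand first. Bmpr2, the BMP type II receptor, stood at 150.2 CPM (145 to 156), and Tgfbr2, the TGF-beta type II receptor on the minus strand of chromosome 9 (116084293 to 116175360), reached 131 CPM (126 to 136). The annotated exons of Bmpr2 span 17983 bases against 8187 for Tgfbr2, and per kilobase Bmpr2 stood at 0.522 times Tgfbr2 (0.496 to 0.549). Acvr2a and Acvr2b, receptors for activins and some BMPs, stood at 52.7 and 13.1 CPM, a ratio per kilobase of 2.79 (2.44 to 3.19). Tgfbr1 and Tgfbr2, which work as a complex, differed per kilobase by 1.27 times (1.20 to 1.34). The co-receptor betaglycan, Tgfbr3, which presents TGF-beta to Tgfbr2, was listed at 0.

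Of 9 other receptor and co-receptor genes, Rgmb, a BMP co-receptor, was the highest at 3.97 CPM per kilobase. Amhr2 and Eng followed with 12 and 13 counts. Acvrl1, Acvr1c, Bmpr1b and Rgma had 1 to 9 counts, and Hfe2 and Tdgf1 were listed at 0. None of the 9 exceeded the median gene, against 26.3% of all entries.

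**Figure D2:**
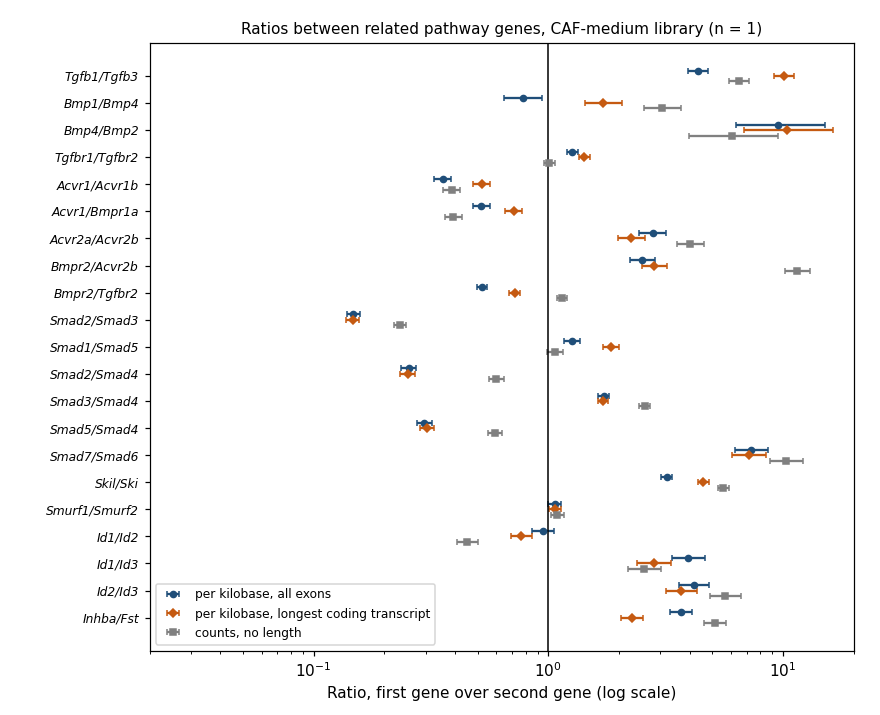
Ratio of the first to the second gene of each pair on a log axis, from counts per kilobase of all annotated exons, per kilobase of the longest protein-coding transcript, and from counts alone. Bars are exact binomial 95% intervals and the vertical line marks 1. Smad2 lies far below Smad3 under all 3 measures, while Bmp1 against Bmp4 and Bmpr2 against Tgfbr2 cross the line.

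The SMAD genes were uneven, with Smad3 well above the rest. Smad3, on the minus strand of chromosome 9 between 63646767 and 63757994, had 5218 counts, or 245 CPM (239 to 252), and 44.3 CPM per kilobase (43.1 to 45.5), the highest of the 38 genes by all annotated exons. Its partner Smad2, which carries the same signals, stood at 57.3 CPM (54.1 to 60.6) and 6.53 CPM per kilobase. Smad2 was therefore at 0.147 times the level of Smad3 per kilobase (0.138 to 0.157), and at 0.147 times as well with the longest coding transcript. Of the levels of Smad1, Smad2, Smad3 and Smad5 summed per kilobase, Smad3 held 65.1%, or 60.4% with the longest coding transcript.

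The BMP SMAD genes lay close together by CPM but less so per kilobase. Smad1 stood at 60.2 CPM (57.0 to 63.6) and Smad5 at 56.6 CPM (53.4 to 59.8), and Smad1 exceeded Smad5 by 1.26 times per kilobase (1.17 to 1.37), or 1.86 times with the longest coding transcript. The related Smad9 had 1 count. Smad2 and Smad3 together came to 50.8 CPM per kilobase and Smad1 and Smad5 to 17.2 (55.3 and 24.5 with the longest coding transcript). The shared partner Smad4, the pathway gene often lost in human pancreatic cancer, was present at 95.4 CPM (91.3 to 99.7) and 25.7 CPM per kilobase. Smad3 stood at 1.72 times Smad4 (1.64 to 1.81), Smad5 at 0.296 times (0.276 to 0.319) and Smad2 at 0.254 times (0.236 to 0.273). A count of RNA does not show whether a gene is intact.

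The inhibitory SMADs block the receptors and are themselves induced by the pathway. Smad7, which acts on both branches, stood at 78.1 CPM (74.4 to 82.0), and Smad6, which acts mainly on the BMP branch, at 7.57 CPM (6.45 to 8.83). Per kilobase, Smad7 exceeded Smad6 by 7.32 times (6.22 to 8.66).

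Repressors and feedback genes ranged widely, from Skil, Pmepa1 and Tgif1 near the top of the group per kilobase to Smad6 near its end. Skil, which encodes the SMAD repressor SnoN and is a known TGF-beta target that spans 31095058 to 31122577 on the plus strand of chromosome 3, had 8512 counts, or 400.2 CPM (392 to 409). Its level exceeded that of 96.7% of entries with at least 10 counts by CPM and 88.6% per kilobase. Its relative Ski stood at 72.0 CPM (68.4 to 75.7), and Skil exceeded it per kilobase by 3.19 times (3.02 to 3.37). Pmepa1 is a TGF-beta target whose product inhibits the pathway at the level of the receptor. The gene spans 173224458 to 173276533 on the minus strand of chromosome 2 and reached 198 CPM (192 to 204). Tgif1, a homeodomain repressor that joins SMAD complexes and lies at 70844205 to 70853546 on the minus strand of chromosome 17, came to 166 CPM (160.5 to 171). The ubiquitin ligases Smurf1 and Smurf2, which mark SMADs and receptors for breakdown, stood at 102 and 92.9 CPM and had a ratio of 1.06 per kilobase, with a lower bound that barely cleared 1 and an upper bound of 1.13.

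By CPM per kilobase of all exons, the 5 highest of the 38 genes were Smad3, Skil, Pmepa1, Tgif1 and Tgfb1, at 44.3, 41.3, 40.2, 29.5 and 28.8. The same 5 genes were highest with the longest coding transcript, in another order, with Tgif1 at 96.8, Tgfb1 at 66.7 and Skil at 59.6 ahead of Smad3 at 48.2 and Pmepa1 at 43.5. Of 32 pairs of neighbours in the order by all exons, 15 had a ratio whose interval held 1, among them Skil and Pmepa1 (1.03, 0.990 to 1.07) and Tgif1 and Tgfb1 (1.03, 0.976 to 1.08). The lowest detected genes were Smad6 at 2.36, Bmp6 at 0.591 and Bmp2 at 0.344. Of the 38 genes, 20 exceeded the median gene per kilobase, at 8.14, against 26.3% of all entries with a gene model.

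**Figure D3:**
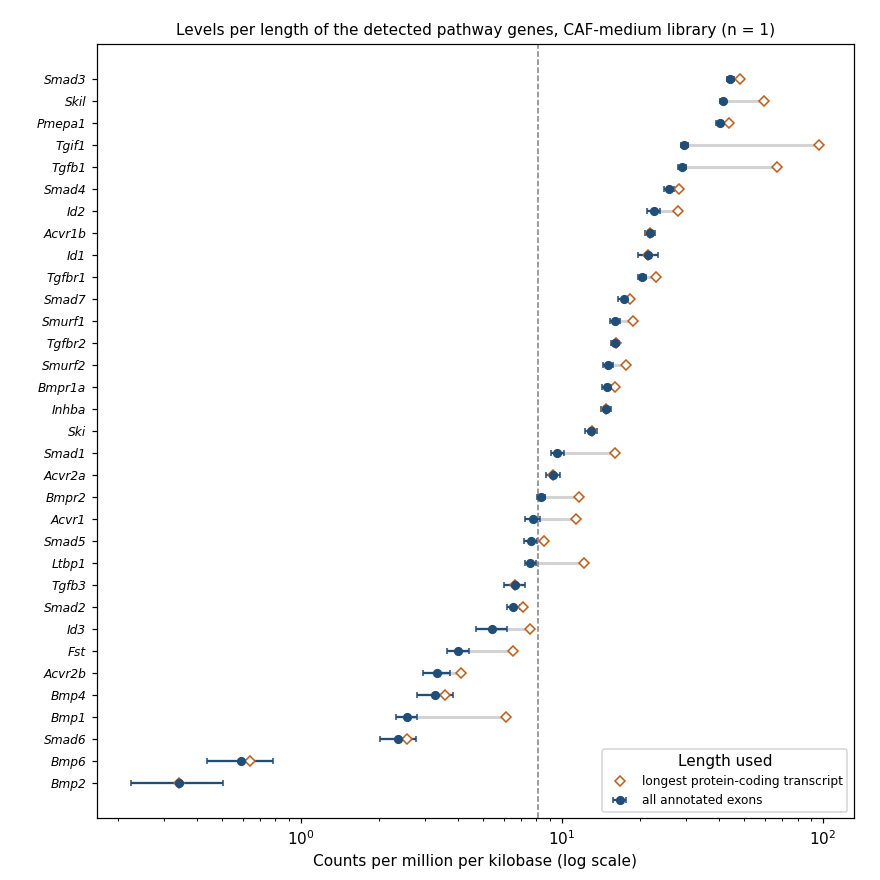
CPM per kilobase on a log axis for the 33 genes with counts, ordered by the length of all annotated exons (filled circles with exact Poisson 95% intervals). Open diamonds use the longest protein-coding transcript, and the dashed line is the median gene at 8.14. The diamond lies far from the circle for Tgif1, Tgfb1 and Bmp1, and on or near it for Smad3, Smad4 and Tgfbr2.

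The Id genes encode proteins that block basic helix-loop-helix factors and are widely used as readouts of BMP signalling. Id2 stood at 54.9 CPM (51.8 to 58.2), Id1 at 24.8 CPM (22.8 to 27.0) and Id3 at 9.69 CPM (8.41 to 11.1). By CPM per kilobase, Id2 and Id1 lay above the median gene and Id3 below it. These are short genes, and per kilobase Id2 and Id1 stood at 22.5 and 21.4, a ratio of Id1 to Id2 of 0.95 (0.856 to 1.05). With the longest coding transcript that ratio was 0.767 (0.691 to 0.851), so whether the pair differed depends on the length. Id1 exceeded Id3 by 3.96 times per kilobase (3.36 to 4.67). Levels in 1 library do not show whether a target was induced.

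Tgfbi, a matrix protein named for its induction by TGF-beta, was listed at 0; the gene spans 56609523 to 56639562 on the plus strand of chromosome 13. Of 25 other genes often induced by TGF-beta, 21 reached 10 counts, against 52.6% of all entries, and 15 exceeded the median gene by CPM, against 26.3%. The median of the 21 was 89.7 CPM. The transcription factor Junb, the vascular growth factor Vegfa and the integrin subunit Itgb1 led per kilobase at 316, 156 and 113. All of these answer to several pathways. Ctgf and Cyr61, at 87.3 and 133 CPM, matched no gene model and could not be ranked per kilobase. Mmp2 was listed at 0, and Snai1, Acta2 and Mmp9 had 1 to 9 counts.

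Of 12 genes often induced by BMP, 5 had at least 10 counts, against 52.6% of all entries, and 5 were listed at 0, against 36.6%. By CPM, 2 exceeded the median gene, against 26.3%. These counts lie near those of the table as a whole. The Notch-responsive repressor Hes1 and the bone and epithelial factor Runx2 led at 19.6 and 18.2 CPM per kilobase, followed by Gata3 at 3.65. Msx1, Msx2, Dlx5, Atoh8 and Hamp were listed at 0. No test of the TGF-beta list against the BMP list was made.

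Of 19 further mediators and modifiers inside the cell, 17 reached 10 counts, against 52.6% of all entries. By CPM 16 exceeded the median gene and per kilobase 9 did, against 26.3% on either scale, and the median of the 17 was 79.6 CPM. Fkbp1a, which binds type I receptors and keeps them quiet, led at 123 CPM per kilobase, followed by the acetyltransferase and SMAD coactivator Ep300 at 28.4 and the SMAD4 regulator Trim33 at 28.2. Foxh1, a SMAD partner of early development, was listed at 0.

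**Figure D4:**
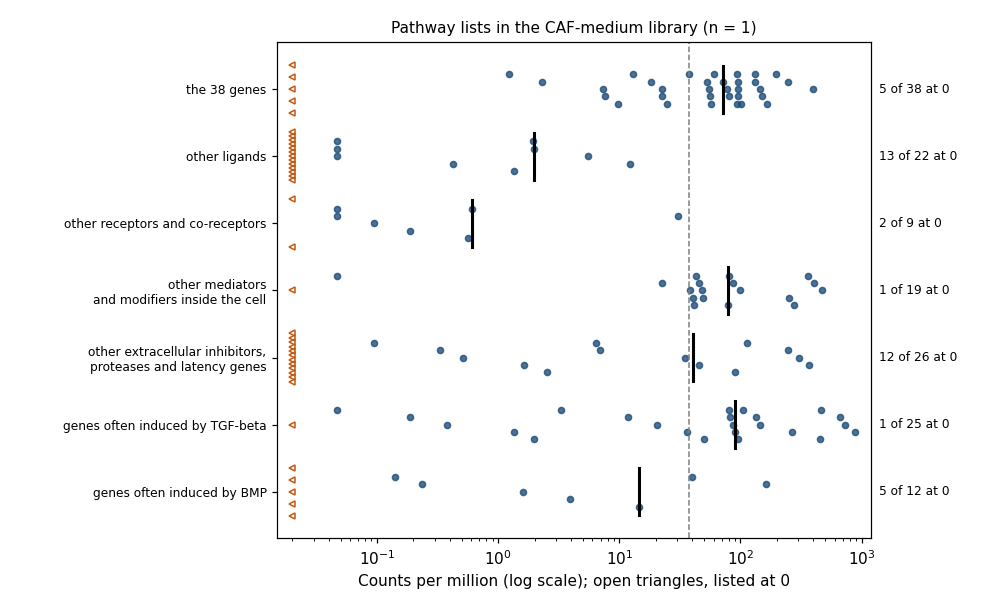
Level in CPM on a log axis for the 38 genes and 6 further lists of pathway genes, each point a gene. Open triangles at the left edge are genes listed at 0, with their number at the right, black bars are medians over genes with at least 10 counts, and the dashed line is the median gene at 37.9 CPM. Ligands and additional receptors gather at low values, while mediators inside the cell and genes often induced by TGF-beta reach higher ones.

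RefSeq promoters were matched for 25 of the 38 genes, with 33 start sites. Their median number of CpG dinucleotides in the 250 bases before the start was 22, against 16 over all promoters of entries with at least 10 counts and 3 over those of entries listed at 0. As the runs printed above show, the promoter of Inhba held 3 CpG and that of Inhbb 21. Tgfbi, also listed at 0, held 15, the Smad3 promoter 22 and that of Tgfb1 21. Ski had the most, with 53. Of the 25 genes with a promoter, 2 are listed at 0, and no relation between CpG number and level was tested.

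**Figure D5:**
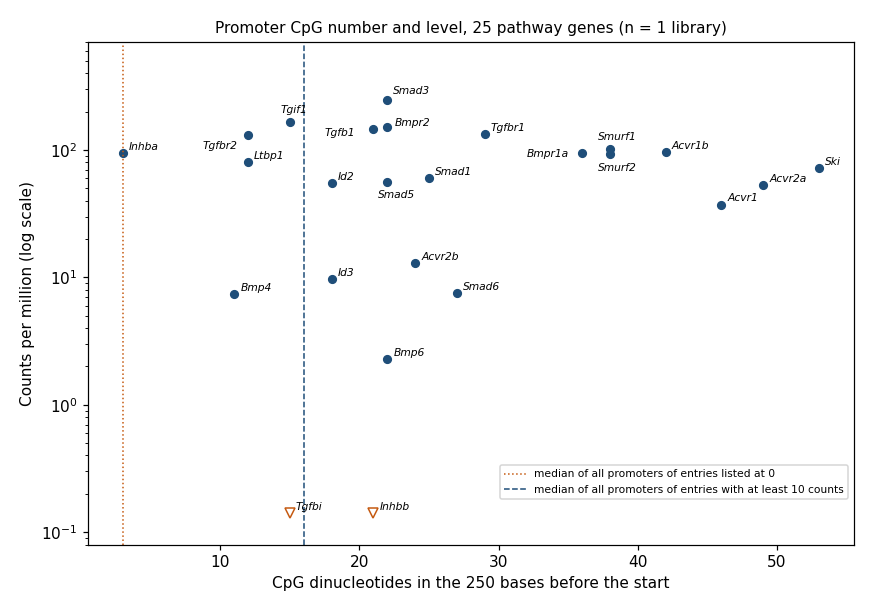
Number of CpG dinucleotides in the 250 bases before the first listed start (horizontal axis) and level in CPM on a log axis for the 25 genes with a promoter. Open triangles are genes listed at 0, drawn at 0.141 CPM, and vertical lines give the medians of all promoters of entries listed at 0 (dotted, 3) and of entries with at least 10 counts (dashed, 16). Inhba, at 94.4 CPM, sits on the dotted line, and Tgfbi and Inhbb lie at 15 and 21.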

How the data were processed

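Per the labels, total RNA of 14837 cells was extracted with Trizol and made into libraries by Illumina protocols. The submitters' processing notes name HISAT2 2.1.0, StringTie and mm10 without their roles. Which program counted the reads, whether it used strand and how it treated reads with several matches is, in the sources used here, not given. The authors deposited unscaled counts, whole numbers with 1 row for each gene symbol. Of the 2 value columns, 1 was not used because its name fitted the labels of neither library, so the planned ratio of the media was not made.

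Counts were divided by the column total of 21269197 and given per 1000000. Intervals are exact Poisson or exact binomial at 95%. Their code was checked on simulated Poisson counts, which does not test whether the counts of this library scatter that way. The intervals cover counting error only, and reads without molecular identifiers are not independent molecules. Gene models came from GENCODE M21 (GRCm38), to which 21900 entries (99.6%) matched. Length was that of all annotated exons. Each gene's longest transcript was cut into windows of 64 bases in steps of 16, and none of the 38 genes had a window in transcripts of other, non-overlapping genes. Promoters are RefSeq's on GRCm38.p6.

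All 38 genes could be named. From each further list the 3 highest per kilobase and the genes at 0 were named, apart from an item that is not reported here, and genes with 1 to 9 counts were named after their values were seen. The members, lists and 25 gene pairs were chosen with earlier results of these data known. Sums over branches, neighbour ratios, promoter measures and alternatives on the 10-count minimum were added after seeing the data. Calculations ran in Python 3.11.15 with scipy 1.17.1, pandas 2.3.3, numpy 2.4.6 and, for plots, matplotlib 3.10.9.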

Additional observations from a re-analysis of the deposited data

How the results depend on the processing

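The number of genes above the median gene was 22 and ranged from 19 to 33 over 4 alternatives, with 33 when entries at 0 entered the median. The 26.3% of all entries given earlier belongs to the median over entries with at least 10 counts. A lower median lets more of all entries pass too, and the shares at the other minimums were not worked out. The median of detected genes was 72.0 CPM; it came to 56.9 CPM with no minimum, 78.1 CPM with a minimum of 100 counts and 66.1 CPM without the highest gene, and to 72.8 CPM without mitochondrial counts in the total. Genes with at least 10 counts numbered 33, against 31 at a minimum of 100 and 33 at a minimum of 1. The 52.6% of all entries given earlier holds for the minimum of 10 only, and the shares at 100 and at 1 were not worked out. Of 25 pairs, 4 had a gene at 0, and 20 of the other 21 had an interval that left out 1, against 21 with the longest coding transcript and 19 without length. The order of Bmp1 to Bmp4, 0.776 per kilobase, turned to 1.72 with the longest coding transcript and 3.06 without length, and that of Bmpr2 to Tgfbr2, 0.522, turned to 1.15 without length, in each case by construction through the length used. No other order that the intervals called turned under either alternative. The sizes depended more on the length. Of the 21 ratios, 11 kept their order but left their interval with the longest coding transcript, and 18 did so without length. With the longest coding transcript, Acvr1 to Acvr1b came to 0.520 and Skil to Ski to 4.57. The intervals do not cover this choice of length. The scaling alternative for the ratio of the 2 media was not run, since no ratio was made. No paired analysis was possible because a single library was used. The one-sided limit for genes at 0 is 0.141 CPM by counting error, and Bmp2 and Bmp6 rest on 26 and 49 counts.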

Other observations

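Short motifs tied to the pathway were searched on both strands in the 250 bases before the 33 start sites of the 25 genes with a RefSeq promoter, a description that was chosen after seeing the data. The GC-rich SMAD element GGCGCC was found at 8 of 33 start sites (24.2%), in Tgfbr1, Bmpr1a, Bmpr2, Smad5, Ski, Smurf2, Id2 and Tgfbi. It was found in 12.6% of 20125 promoters of entries in the table and in 16.5% of those of entries with at least 10 counts. The promoters of the 25 genes are also richer in G and C, with a median of 66.4% against 56.0% over all, and the part of base composition was not tested. The SMAD element CAGACA was found at 5 of 33 start sites (15.2%, against 14.8% of all), in 4 of 25 genes. TGTCA, the core bound by TGIF proteins, was found at 6 (18.2%, against 36.6% of all), also in 4 of 25 genes. Among promoters of entries with at least 10 counts, CAGACA was found in 13.2% and TGTCA in 30.9%. The part of base composition was not tested for these motifs either. Start sites of 1 gene, such as those of Tgif1, were counted separately. The palindrome GTCTAGAC was found at none of the 33 and in 0.184% of all promoters. CAGACA shares the letters AGAC with GTCTAGAC and, read on the other strand, TGTC with TGTCA. A match is a run of letters and not a bound site.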
